A study of Mus musculus with 14 samples.

Results

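The 10 genes described here encode proteins that coat lipid droplets, fuse them or control the release of fatty acids from them in mouse liver. They were chosen by name: the perilipins Plin2, Plin3, Plin4 and Plin5, the CIDE family genes Cidea, Cideb and Cidec, the lipase inhibitors Hilpda and G0s2, and the lipase gene Pnpla2. All 10 were found in each table, among 23404 and 20337 genes of the bulk tables and 21911 genes of the single-nucleus table. The first bulk table holds 3 libraries labelled Ms4a7 KO and 3 labelled wild type, all from livers of mice on a NASH (nonalcoholic steatohepatitis) diet for 22 weeks. The second holds 3 libraries of wild type mice on chow given tail-vein injections of lipid droplets (LD) on 6 consecutive days and 3 of wild type mice on chow given phosphate-buffered saline (PBS) the same way. The nuclei come from 1 KO and 1 wild type library on the same NASH diet and for the same time, each pooling 3 livers. Ms4a7 encodes a membrane protein of macrophages. Age, sex, strain, the allele deleted and the source of the injected droplets are not given in the labels, nor is it said whether the 3 libraries of a group are separate animals, so p-values measure the spread between these libraries.

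A lipid droplet is a core of triacylglycerol and cholesteryl ester under a phospholipid layer studded with proteins. Perilipins cover that surface and limit the access of lipases, and CIDE proteins gather at contacts between droplets and move lipid from smaller to larger ones. Adipose triglyceride lipase, the product of Pnpla2, cleaves the first fatty acid from triacylglycerol, and the small proteins G0S2 and HILPDA bind and inhibit it. In hepatocytes PLIN2 is the main coat protein, PLIN5 places droplets beside mitochondria, and CIDEB takes part in loading lipid onto very low density lipoprotein. Cidea, Cidec and Plin4 are typical of adipose tissue and are known to be induced in fatty mouse liver, where PPARG drives several of them.

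The levels of Ms4a7 ran against the genotype labels of the first bulk table. It had 102, 117 and 136 normalized counts in the libraries labelled KO, against 9.70, 25.8 and 23.3 in those labelled wild type (limma log2 fold change 2.63 ± 0.37 SE, adjusted p = 0.0149; 0.063 without KO replicate 2 and 0.0538 without KO replicate 3). In the second table it had 10.5, 7.60 and 9.32 in the libraries labelled LD and 62.2, 84.7 and 163 in those labelled PBS (log2 fold change -3.26 ± 0.39 SE, adjusted p = 0.0043). A header line of the first table calls its columns untreated or treated and gives no genotype, and the depositors named that table for LD and the second for Ms4a7. Whether the 2 bulk tables carry each other's labels is not stated by the depositors and was not tested. An exchange would swap diet, genotype and injection between them. Each bulk library is therefore named by its label throughout, and every bulk result below, its diet and treatment included, holds for the labels as given. In nuclei, Ms4a7 stood at 0.622 in KO and 1.25 in wild type macrophage-like nuclei (mean UMIs per 10000), and the part of the transcript that was deleted is not given.

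The first table held 21945394 to 23126164 reads in genes per library and the second 39318264 to 41346464. Of the marker lists, 11 of 14 tested macrophage and Kupffer cell genes were called higher in the libraries labelled KO, and the list summed to 44713 to 73728 normalized counts in libraries labelled KO against 6835 to 13974 in libraries labelled wild type. Hepatocyte markers summed to 2449050 to 2846650 in libraries labelled KO and 2357200 to 2640940 in libraries labelled wild type, with 1 of 15 called. In the second table no hepatocyte marker of 15 was called at an adjusted p under 0.05, while 6 were higher in libraries labelled LD at an unadjusted p under 0.05 (edgeR called 1 and DESeq2 called 5). The hepatocyte list summed to 4726850 to 5077130 in libraries labelled LD and 3723780 to 4637840 in libraries labelled PBS, without overlap. There, 5 of 12 stellate cell markers and 4 of 10 cholangiocyte markers were called lower in libraries labelled LD. Of 16 macrophage and Kupffer cell markers, 4 were called lower and 2 higher there, and that list summed to 20106 to 26155 in libraries labelled LD and 23074 to 36695 in libraries labelled PBS. The stellate list summed to 33482 to 35204 in libraries labelled LD against 42332 to 48905 in libraries labelled PBS, and the cholangiocyte list to 5048 to 7841 against 10112 to 14577. In bulk liver, fewer cells of a type and less RNA per cell cannot be told apart, and the part of these shifts in any member's level was not tested.

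One library labelled LD stood apart in genes of other tissues. Replicate 2 had 271 normalized counts of Acta1 and 465 of Myh4 (skeletal muscle actin and myosin), 62.9 of Plin1 and 70.5 of Adipoq (adipocyte genes). LD replicate 1 had 31.5, 45.1, 26.2 and 30.4 of the same genes, LD replicate 3 had 0 of each, and no library labelled PBS was above 25.1. The 8 adipocyte markers held by this table, with the member Cidea among them, summed to 5614 to 8960 normalized counts in libraries labelled LD. In libraries labelled PBS they summed to 2974 to 5292. None of the 7 that were tested was called by limma (2 were higher at an unadjusted p under 0.05), edgeR or DESeq2. The Cidea level of LD replicate 2, 960 normalized counts, was the lowest of the 3 libraries labelled LD, and the part of adipocyte transcripts in the members' levels was not tested.

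Positions are those of GENCODE vM21 on mm10, and each gene is protein coding. Plin4 (chromosome 17, 56100591 to 56109803), Plin5 (56111601 to 56117596) and Plin3 (56277476 to 56292873) lie in a row on the minus strand, with 1797 bases between Plin4 and Plin5 and 159879 between Plin5 and Plin3. Plin2 lies on chromosome 4 (86648386 to 86670060, minus strand), and Cidec (113424634 to 113435760, minus strand) and Hilpda (29272488 to 29275446, plus strand) share chromosome 6. Cideb lies on chromosome 14 (55754050 to 55758458, minus strand), G0s2 on chromosome 1 (193272161 to 193273217, minus strand) and Pnpla2 on chromosome 7 (141455198 to 141460743, plus strand). G0s2 lies within the span of Lamb3 on the opposite strand, Cideb overlaps Nop9, Plin4 touches the end of Hdgfl2 and Cidea overlaps the noncoding gene B430212C06Rik, each on the opposite strand. Whether the counting used strand is not given, so reads of such partners could be counted together.

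Promoter windows of the members whose libraries did not overlap between groups in a bulk table follow, from RefSeq on GRCm38.p6, from 250 bases before to 50 after a transcript start, 5′ to 3′ on the gene's strand. Capitals mark matches on either strand to CACGTG, the E-box, or to ACGTG or GCGTG, the core of a hypoxia response element; ACGTG lies inside the E-box, so that match counts for both. The Plin2 window is chr4:86670010-86670309, the Plin4 window chr17:56109733-56110032, the Cidec window chr6:113435711-113436010 and the Hilpda window chr6:29272376-29272675.
Plin2: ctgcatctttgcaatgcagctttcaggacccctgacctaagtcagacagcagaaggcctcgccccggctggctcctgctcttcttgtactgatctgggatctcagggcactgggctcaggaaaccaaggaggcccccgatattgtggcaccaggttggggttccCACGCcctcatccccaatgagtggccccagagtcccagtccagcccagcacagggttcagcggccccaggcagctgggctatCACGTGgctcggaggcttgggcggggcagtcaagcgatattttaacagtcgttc
Plin4: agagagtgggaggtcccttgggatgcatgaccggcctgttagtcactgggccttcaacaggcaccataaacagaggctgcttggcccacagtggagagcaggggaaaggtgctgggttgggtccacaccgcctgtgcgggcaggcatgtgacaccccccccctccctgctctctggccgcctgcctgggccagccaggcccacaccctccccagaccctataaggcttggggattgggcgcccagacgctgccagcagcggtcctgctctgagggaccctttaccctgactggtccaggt
Cidec: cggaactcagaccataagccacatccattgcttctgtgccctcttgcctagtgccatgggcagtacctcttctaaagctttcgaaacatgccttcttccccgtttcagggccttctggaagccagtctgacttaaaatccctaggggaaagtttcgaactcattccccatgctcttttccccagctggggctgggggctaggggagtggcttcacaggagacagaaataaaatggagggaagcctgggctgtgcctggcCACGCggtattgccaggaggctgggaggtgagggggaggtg
Hilpda: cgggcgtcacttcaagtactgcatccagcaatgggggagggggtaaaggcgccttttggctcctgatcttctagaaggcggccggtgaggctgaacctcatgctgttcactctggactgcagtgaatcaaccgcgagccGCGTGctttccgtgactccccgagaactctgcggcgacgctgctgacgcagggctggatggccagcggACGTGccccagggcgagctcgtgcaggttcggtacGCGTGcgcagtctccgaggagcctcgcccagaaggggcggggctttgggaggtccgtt
The Plin2 window held 1 E-box and 3 core matches in all. The Hilpda window shown, of the downstream of its 2 starts, held 3 core matches, and the window of its upstream start held 1. Of 32851 windows of this length, 7.15% held an E-box and 43.8% a core match. Each Cidec window held 1 core match, and the Plin4 window held none. No match to the DR1 direct repeat, bound by PPAR and RXR dimers, was found in the windows of the 9 members that had one, and 0.381% of all windows held it. TATAAA, found in 13.6% of windows, was matched in the Cideb window alone among the members' 12 windows. These are letter matches within a short window and say nothing of binding.

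Per length of exon, Cideb and Plin2 led the libraries of the first table, and Plin2 and G0s2 led those of the second. Levels are RPKM, reads per kilobase of exon scaled to a common total of reads in the 17582 gene symbols that both bulk tables hold, a scale that allows genes to be compared. Under the labels KO and wild type, Cideb averaged 117 ± 3.74 and 120 ± 2.99 (SD, n = 3 each), Plin2 63.0 ± 10.0 and 78.2 ± 7.23, and Pnpla2 37.9 ± 0.348 and 38.7 ± 1.27. G0s2 overlapped Pnpla2 in both groups, at 31.1 ± 19.6 in libraries labelled KO and 34.9 ± 14.3 in libraries labelled wild type. Plin3 and Plin5 followed and overlapped each other, between 5.62 and 10.1 in the 6 libraries. Cidec, Hilpda, Plin4 and Cidea came last in that order with no overlap between neighbours, and Cidea had 0 to 2 reads per library.

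Under the labels LD and PBS, Plin2 averaged 241 ± 36.6 and 320 ± 12.5 on that scale, and G0s2 109 ± 5.30 and 130 ± 37.1. Cidec came next at 41.2 ± 10.9 and 61.2 ± 10.6, followed by Cidea at 33.6 ± 10.6 and 35.0 ± 6.96 and by Pnpla2 at 31.5 ± 9.28 and 32.4 ± 3.55. Cidec and Cidea overlapped in libraries labelled LD and not in those labelled PBS, and Cidea overlapped Pnpla2 in both. Plin5, Plin4, Plin3 and Cideb lay between 11.7 and 26.5 in the 6 libraries. Hilpda was lowest, at 2.08 ± 0.837 and 2.70 ± 0.248. With the longest transcript in place of all exons, the level of Plin2 was higher by over 1 SD in each group (117 and 145 in the first table, 448 and 595 in the second) and its place in the order did not change. Pnpla2, at 36.2 under the label LD and 37.3 under the label PBS, then came before Cidea in both groups. Cideb moved ahead of Plin5 in libraries labelled LD and ahead of Plin4 and Plin3 in those labelled PBS.

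**Figure D1:**
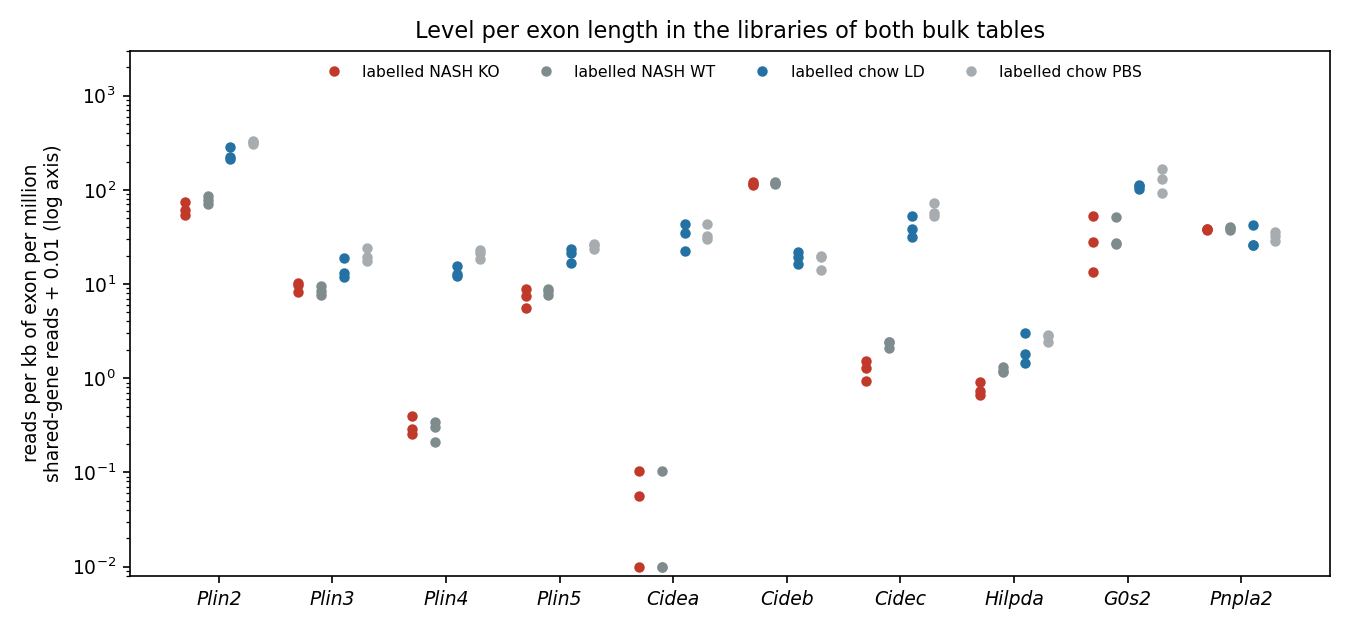
Level of each gene in each bulk library, in RPKM over shared genes plus 0.01, on a log axis; each point is 1 library and colours are the labelled groups. Cidea, Plin4 and Cidec sit far lower in the 6 libraries labelled NASH than in the 6 labelled chow, and Cideb sits higher.

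The droplet genes typical of fat tissue were close to absent from the bulk libraries labelled NASH and abundant in those labelled chow. Cidea had 5 reads over the 6 libraries labelled NASH and 8313 over the 6 labelled chow, a level 870 times higher under the label chow (95% exact counting interval 373 to 2680, which covers counting error only). As CPM over shared genes, Plin4 averaged 1.68 in libraries labelled NASH and 99.8 in libraries labelled chow. Cidec ranged from 1.73 to 4.52 CPM in libraries labelled NASH and from 59.0 to 136 CPM in libraries labelled chow. These 3 genes were at least 8 times lower under the NASH label, where 1.1% of 13354 genes with 1 CPM or more in either table were. Plin2 averaged 248 CPM in libraries labelled NASH and 985 in libraries labelled chow, G0s2 28.8 and 104, Plin5 16.4 and 47.7, Hilpda 1.08 and 2.64, and Plin3 33.8 and 66.0. Cideb alone of the 10 was higher under the NASH label without overlap, at 176 against 27.5 CPM. This 6.38-fold difference fell short of the 8-fold mark, which 4.79% of genes reached in that direction. The share of all genes without overlap between the tables was not counted. Pnpla2 ranged from 113 to 120 CPM in libraries labelled NASH and from 78.7 to 127 in libraries labelled chow, and overlapped. The tables were made separately and the second holds no mitochondrially encoded gene, so table, label and any difference in library making cannot be told apart, and no test was made across them. If the tables carry each other's labels, each of these directions between diets turns round. The nuclei, also labelled NASH diet, did hold Cidec, Plin4 and Cidea. Among genes of hepatocyte-like group 0 (described below), Cidec stood at percentile 92.6, Plin4 at 88.3 and Cidea at 61.7. In hepatocyte-like group 1 they stood at 81.2, 71.0 and 40.6. Bulk and nuclei levels are on different scales, and the cause of this contrast was not tested.

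By its labels, the first table sets Ms4a7 KO against wild type livers on the NASH diet, although Ms4a7 was higher in the libraries labelled KO, so they are not described as lacking it. Plin2, Cidec and Hilpda lay lower in all libraries labelled KO than in any labelled wild type, and none of the 9 members tested was called. limma called 3.72% of 15827 genes at an adjusted p under 0.05, edgeR called 4.09% and none of the 9, and DESeq2 called 7.84% in either direction and 2.03% lower, and 1 of the 9, Cidec, lower. At an unadjusted p under 0.05 limma had 3 of the 9 lower, where 7.99% of all genes tested were lower and 18.7% passed in either direction. Groups did not overlap for 3 of the 9, all lower, against 11.7% of all genes lower and 24.2% in either direction. The median log2 fold change of the 9 was -0.25, against -0.02 over all genes tested.

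Among coat proteins, Plin2, the main droplet coat of hepatocytes, had 4979, 4344 and 5746 normalized counts in libraries labelled KO, against 6890, 5851 and 6421 in libraries labelled wild type. The highest library labelled KO lay just below the lowest labelled wild type. The log2 fold change was -0.35 ± 0.12 SE (adjusted p = 0.179). Plin5 had 365, 267 and 409 in libraries labelled KO and 407, 378 and 433 in libraries labelled wild type, and the groups overlapped (log2 fold change -0.25 ± 0.17 SE, adjusted p = 0.492). Plin3, a perilipin found in most cells that moves onto nascent droplets, had 897, 707 and 810 under the label KO and 822, 753 and 673 under the label wild type. Plin4, which coats small droplets, had 31.9 to 49.5 in libraries labelled KO and 26.7 to 45.3 in libraries labelled wild type. Both overlapped, with 95% intervals of the log2 fold change from -0.18 to 0.38 for Plin3 and from -0.58 to 0.78 for Plin4.

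In the CIDE family the gap was at Cidec. Cidec had 40.6, 54.4 and 62.2 normalized counts in libraries labelled KO, against 103, 90.4 and 105 in libraries labelled wild type. The libraries labelled KO averaged 52.6% of those labelled wild type, with no overlap. The log2 fold change was -0.93 ± 0.21 SE (limma, adjusted p = 0.0584), just outside the threshold; DESeq2 on recovered reads gave an adjusted p of 0.0303, and the authors' deposited table gives -0.93 with an adjusted p of 0.0046. Its raw counts were small, 33, 46 and 54 reads in libraries labelled KO and 85, 70 and 86 in libraries labelled wild type. Cideb had 4205, 3913 and 3737 under the label KO and 4191, 4188 and 4042 under the label wild type, with a 95% interval from -0.26 to 0.12. Cidea, at 0 to 2 reads per library, was not tested.

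Of the lipolysis genes, Hilpda had 18.4, 22.5 and 16.1 normalized counts in libraries labelled KO and 30.3, 33.6 and 29.4 in libraries labelled wild type. The groups stood apart, but each value rests on 14 to 26 reads, and the log2 fold change was -0.69 ± 0.26 SE (adjusted p = 0.217). G0s2 had 1064, 553 and 257 in libraries labelled KO and 527, 553 and 1044 in libraries labelled wild type. Its libraries spread widely within each label, and without KO replicate 3 the log2 fold change of -0.34 turned to 0.19. Pnpla2 overlapped with little spread, at 2692, 2577 and 2542 under the label KO and 2769, 2768 and 2631 under the label wild type (95% interval -0.24 to 0.11). The log2 ratio of G0s2 to Pnpla2, a measure of inhibitor to lipase transcript, averaged -2.29 ± 0.98 in libraries labelled KO and -2.02 ± 0.59 in libraries labelled wild type (SD, n = 3 each). It differed by -0.27 (exact permutation test, two-sided, p = 0.9; the smallest p this design allows is 0.1), and it turned to 0.24 without KO replicate 3 and to 0.07 without wild type replicate 3.

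**Figure D2:**
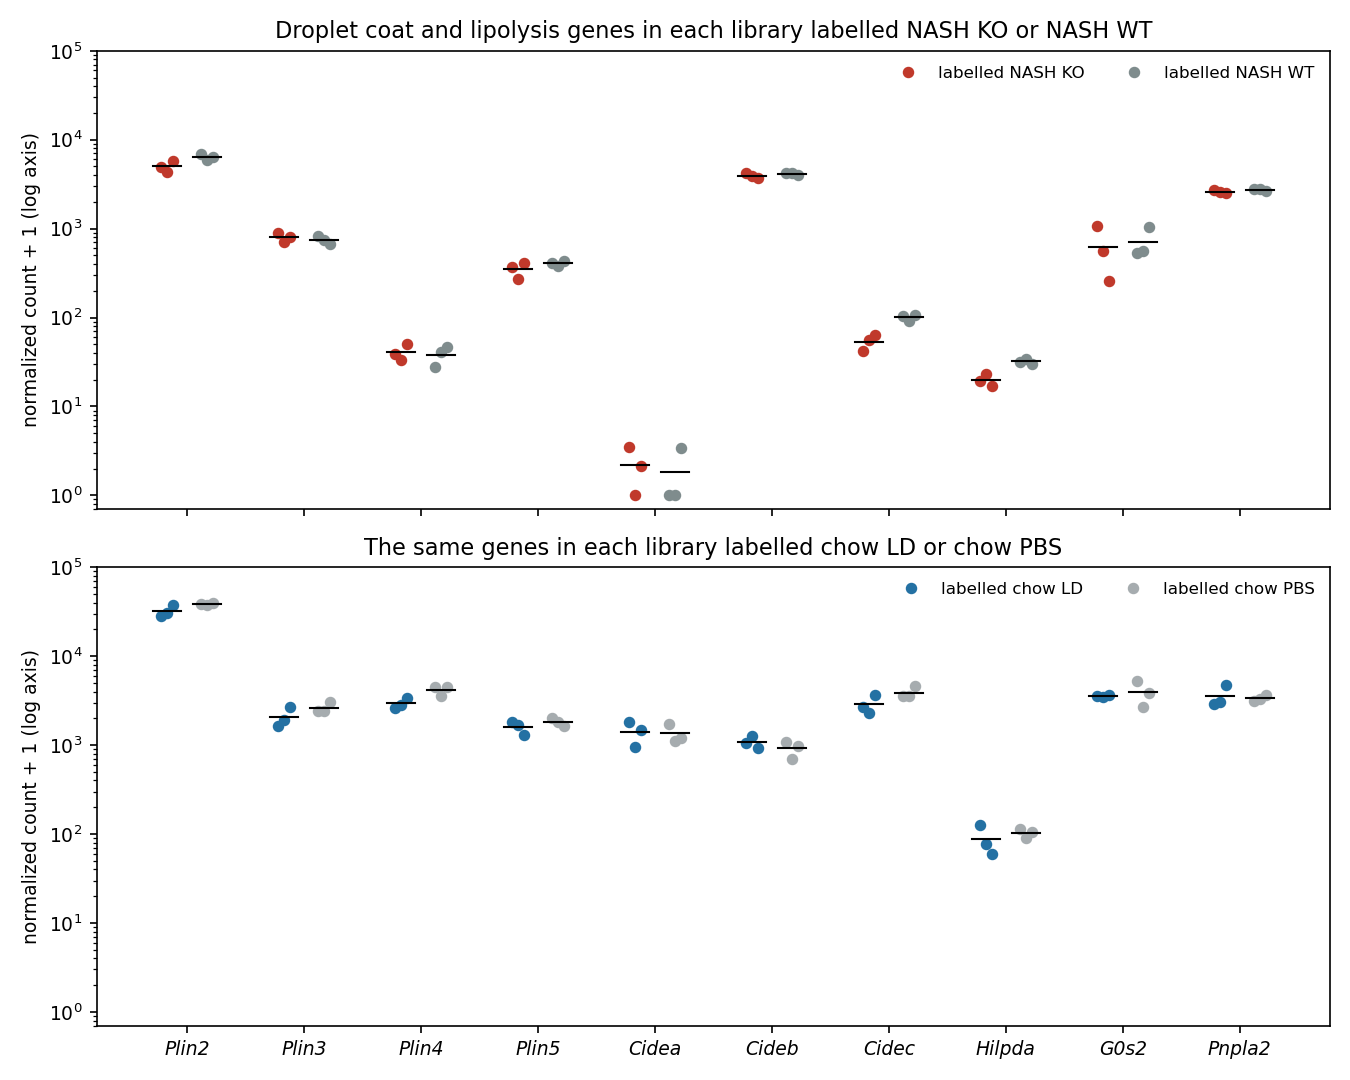
Normalized count plus 1 of each gene in each bulk library on a log axis, with the 6 libraries labelled NASH KO or WT in the upper panel and the 6 labelled chow LD or PBS in the lower; points are libraries and black bars are group means. In the upper panel Cidec and Hilpda separate by label, and in the lower panel Plin4 does so with a narrow gap.

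Neighbouring pathway genes, listed with earlier results of these data known, were called in a few places under the label KO. Of all genes tested there, limma called 3.02% higher and 0.701% lower. Of 18 tested other droplet proteins, 1 was called: Hsd17b13, a hepatocyte droplet enzyme, had 6085, 5438 and 5929 normalized counts in libraries labelled KO and 2670, 2381 and 3401 in libraries labelled wild type (log2 fold change 1.06 ± 0.14 SE, adjusted p = 0.0116). Of 14 triacylglycerol synthesis genes, 1 was called, lower: Gpat3, an acyltransferase of the first step, had 265, 220 and 154 under the label KO against 461, 372 and 398 under the label wild type (log2 fold change -0.97 ± 0.20 SE, adjusted p = 0.0456). Of 11 lipid-responsive transcription regulators, Pparg was called lower (log2 fold change -0.96 ± 0.18 SE, adjusted p = 0.0328) and Ppard higher (0.68 ± 0.12 SE, adjusted p = 0.026). Pparg had 161, 135 and 161 normalized counts in libraries labelled KO and 276, 251 and 377 in libraries labelled wild type. By limma none of 12 lipases and lipase cofactors was called (7 had an unadjusted p under 0.05, 6 of them lower; edgeR called 0 and DESeq2 3). None of 10 fatty acid uptake genes was called (4 at an unadjusted p under 0.05; edgeR 0, DESeq2 2), nor any of 11 tested hypoxia-inducible targets (0 at an unadjusted p under 0.05, 0 by edgeR and DESeq2). The median log2 fold changes of the lists lay between -0.33 for fatty acid uptake and -0.05 for hypoxia-inducible targets, against -0.02 over all genes.

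By its labels, the second table sets lipid droplet injection against PBS in chow-fed livers, although Ms4a7 stood in the libraries labelled LD at 8.84% of its mean in those labelled PBS. Plin2 and Plin4 lay lower in all libraries labelled LD than in any labelled PBS, and none of the 10 members was called. limma called 4.16% of 14900 genes, edgeR 4.05% and none of the 10, and DESeq2 8.19% in either direction and 4.47% lower, and 1 of the 10, Plin4, lower. At an unadjusted p under 0.05 limma had 3 of the 10 lower (Plin2, Plin4 and Cidec), where 10.4% of all genes were lower and 19.7% passed in either direction. Groups did not overlap for 2 of the 10, both lower, against 12.8% of all genes lower and 25.4% in either direction. Without LD replicate 3, Plin2, Plin3, Plin4 and Cidec were called lower, where 4.46% of all genes were called lower and 8.23% in either direction. Their log2 fold changes were then -0.41 for Plin2 (limma, adjusted p = 0.0271), -0.56 for Plin3 (0.0218), -0.60 for Plin4 (0.0126) and -0.65 for Cidec (0.0139). Among omissions of a single library this one gave the most calls, 1226 genes, against 134 to 404 with another library left out. The median log2 fold change of the 10 with all libraries was -0.24, against 0.00 over all genes tested.

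Plin4 had 2631, 2855 and 3360 normalized counts in libraries labelled LD, against 4508, 3566 and 4485 in libraries labelled PBS. The libraries labelled LD averaged 70.4% of those labelled PBS, and the gap between the closest libraries was narrow. The log2 fold change was -0.50 ± 0.12 SE (limma, adjusted p = 0.0557), DESeq2 gave an adjusted p of 0.0056 and the authors' deposited table gives 0.0057. Plin2 had 27987, 30438 and 37252 under the label LD and 39044, 37835 and 39146 under the label PBS, where the third library labelled LD came close to those labelled PBS (log2 fold change -0.29 ± 0.12 SE, adjusted p = 0.211). Plin3 had 1652, 1922 and 2660 in libraries labelled LD and 2429, 2445 and 3052 in libraries labelled PBS, and LD replicate 3 lay within the PBS range (-0.37 ± 0.17 SE, adjusted p = 0.268). Plin5 had 1823, 1700 and 1302 under the label LD and 2005, 1815 and 1643 under the label PBS, so that here LD replicate 3 was the lowest of the 6 libraries (95% interval -0.49 to 0.12).

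Cidec had 2668, 2269 and 3698 normalized counts in libraries labelled LD and 3570, 3559 and 4567 in libraries labelled PBS. LD replicate 3 again lay within the PBS range, and the log2 fold change was -0.46 ± 0.17 SE (adjusted p = 0.184). Cidea had 1798, 960 and 1471 under the label LD and 1735, 1117 and 1207 under the label PBS, overlapping throughout, with a 95% interval from -0.48 to 0.56. Cideb had 1061, 1260 and 916 in libraries labelled LD and 1070, 699 and 979 in libraries labelled PBS (95% interval -0.14 to 0.64). Leaving out LD replicate 2, the library with muscle and adipocyte transcripts, gave log2 fold changes of -0.49 for Plin4, -0.30 for Cidec and -0.26 for Plin2.

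Hilpda had 124, 76.0 and 59.0 normalized counts in libraries labelled LD and 114, 89.2 and 105 in libraries labelled PBS, and the groups overlapped (95% interval -0.94 to 0.31). G0s2 was tight under the label LD, at 3565, 3441 and 3691, and spread under the label PBS, at 5245, 2688 and 3837. Pnpla2 had 2932, 3028 and 4780 under the label LD and 3157, 3284 and 3648 under the label PBS, so that LD replicate 3 was the highest of the 6 libraries. The log2 ratio of G0s2 to Pnpla2 averaged 0.03 ± 0.35 in libraries labelled LD and 0.17 ± 0.52 in libraries labelled PBS (SD, n = 3 each). The difference of -0.14 lay within that spread (exact permutation test, two-sided, p = 0.9, smallest possible 0.1), and it turned to 0.06 without LD replicate 3 and to 0.14 without PBS replicate 1.

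**Figure D3:**
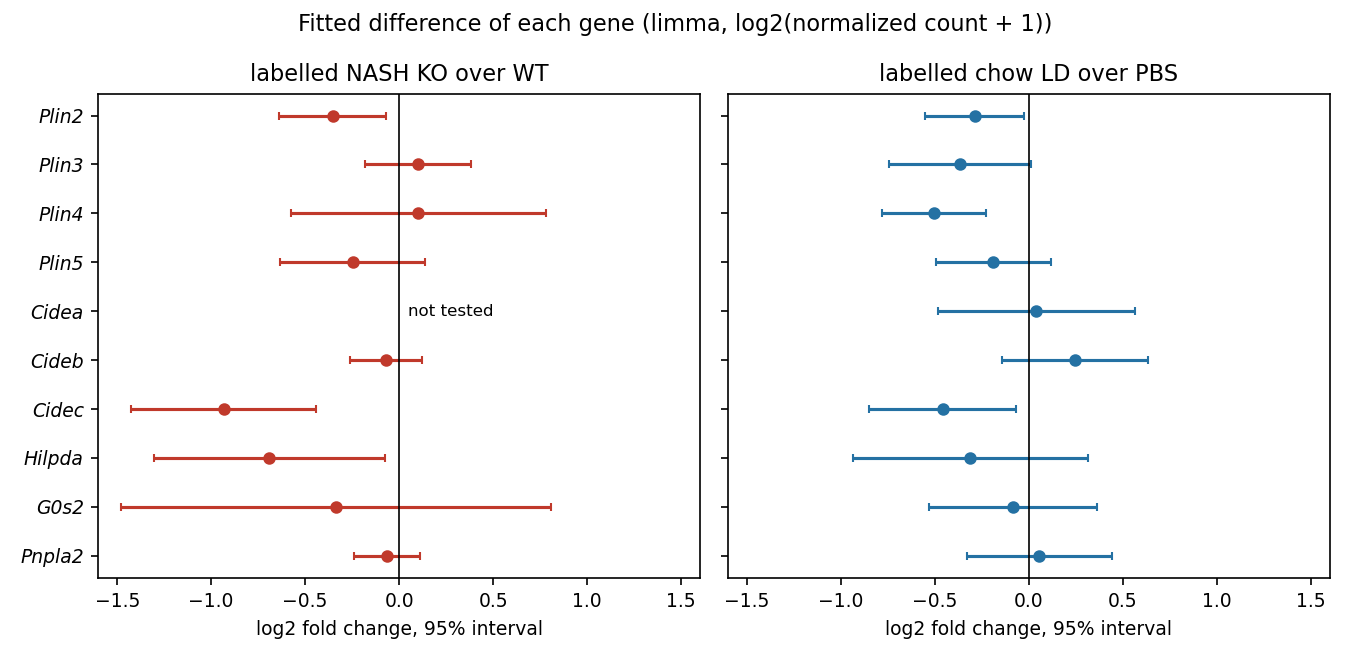
Log2 fold change of each gene with its 95% interval from limma, for the label KO over wild type at left and LD over PBS at right; 0 is drawn as a line and Cidea was not tested at left. Intervals of Plin2 and Cidec lie below 0 in both panels, that of Hilpda at left and that of Plin4 at right, before adjustment over all genes.

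In the same pathway lists, 4 genes were called higher under the label LD and 2 lower, where 1.95% of all genes tested were called higher and 2.21% lower. Of 14 triacylglycerol synthesis genes, Agpat2 (log2 fold change 0.41 ± 0.09 SE, adjusted p = 0.0391) and Dgat2 (0.42 ± 0.09 SE, adjusted p = 0.0309) were called higher. Dgat2, which adds the last fatty acid of triacylglycerol, had 17381, 18997 and 20140 normalized counts in libraries labelled LD and 14621, 13625 and 13811 in libraries labelled PBS. Of 11 transcription regulators, 2 were called, both higher: Mlxipl, which encodes the sugar-sensing factor ChREBP (0.57 ± 0.08 SE, adjusted p = 0.0059), and Srebf1, a master regulator of fatty acid synthesis (0.65 ± 0.13 SE, adjusted p = 0.0264). Mlxipl had 20121, 20074 and 20016 under the label LD against 13311, 14105 and 13186 under the label PBS. Called lower were 1 of 10 fatty acid uptake genes, the scavenger receptor gene Cd36 (-0.53 ± 0.10 SE, adjusted p = 0.0196), and 1 of 11 hypoxia-inducible targets, Ndrg1 (-1.10 ± 0.13 SE, adjusted p = 0.0042). Cd36 had 5241, 5065 and 5777 in libraries labelled LD and 8640.0, 7387 and 7236 in libraries labelled PBS. limma called none of 12 lipases and cofactors (3 at an unadjusted p under 0.05; edgeR 0, DESeq2 2) and none of 19 other droplet proteins (7 at an unadjusted p under 0.05; edgeR 0, DESeq2 2). Median log2 fold changes of the lists ran from -0.12 for hypoxia-inducible targets to 0.23 for the transcription regulators.

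In nuclei, levels are the authors' means of UMIs per 10000 over the nuclei of 12 numbered groups, with 1 pooled library per genotype and therefore no test. Groups are named by marker genes: groups 0 and 1 are hepatocyte-like, 2 stellate cell-like, 3 macrophage-like and 4 endothelial cell-like. Group 5 is neutrophil-like, 6 T and NK cell-like, 7 cholangiocyte-like, 9 B cell-like, 10 dendritic cell-like and 11 mesothelial cell-like, and group 8, in which stellate and endothelial markers are both frequent, is unnamed. The number of nuclei behind a mean is not given, and in group 5 between 63.3% and 70.7% of genes were listed at 0. Hepatocyte transcripts were found in every group: the 15 hepatocyte markers stood at a median of 6.78% to 30.0% of their hepatocyte-like mean in the 10 other groups. The highest single marker stood at 24.8% in group 8 and at 159% in the neutrophil-like group, the lowest and highest such values. A member's level below the median share in another cell type cannot be told apart from this background. A level between the median and the highest marker is not set clear of it either.

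Plin2 passed the level floor, the median over genes of a group, in all 12 groups, as did Plin3 and G0s2. Plin2 had 2.56 in KO and 3.52 in wild type nuclei of hepatocyte-like group 0 and 1.95 and 3.32 in group 1. Macrophage-like nuclei held nearly as much, 2.69 in KO and 2.31 in wild type, or 88.1% of the hepatocyte-like mean, where hepatocyte markers had a median of 15.1% and reached 52.7% at most. The remaining groups lay between 0.534 and 2.63, with the highest in the sparse neutrophil-like group. Plin3 was highest in group 1, at 0.295 in KO and 0.357 in wild type nuclei, and had 0.186 and 0.228 in macrophage-like nuclei. Its lowest levels were 0 in KO nuclei of the neutrophil-like group and 0.0815 in wild type nuclei of the dendritic cell-like group. Plin5 passed the floor in the hepatocyte-like groups alone, with 0.145 in KO and 0.127 in wild type nuclei of group 0, 0.136 and 0.141 in group 1, and at most 0.0358 elsewhere.

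Hilpda had its highest levels, as the mean of both genotypes, outside hepatocytes, at 0.0897 in KO and 0.0585 in wild type macrophage-like nuclei and 0.0752 and 0.0532 in stellate cell-like nuclei, against 0.0237 and 0.0212 in hepatocyte-like group 0. In the mesothelial cell-like group it was listed at 0 in KO and at 0.0791 in wild type. Hilpda passed the floor in the macrophage-like and stellate cell-like groups alone. Pnpla2 was low throughout, with 0.0579 in KO and 0.0521 in wild type nuclei of group 0, and 0.0956 and 0.0523 in macrophage-like nuclei. G0s2 and Cideb followed hepatocytes. G0s2 stood at 5.80% to 29.0% of its hepatocyte-like mean in the other groups apart from the neutrophil-like one, where it stood at 69.5%, and Cideb at 0 to 33.9%.

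**Figure D4:**
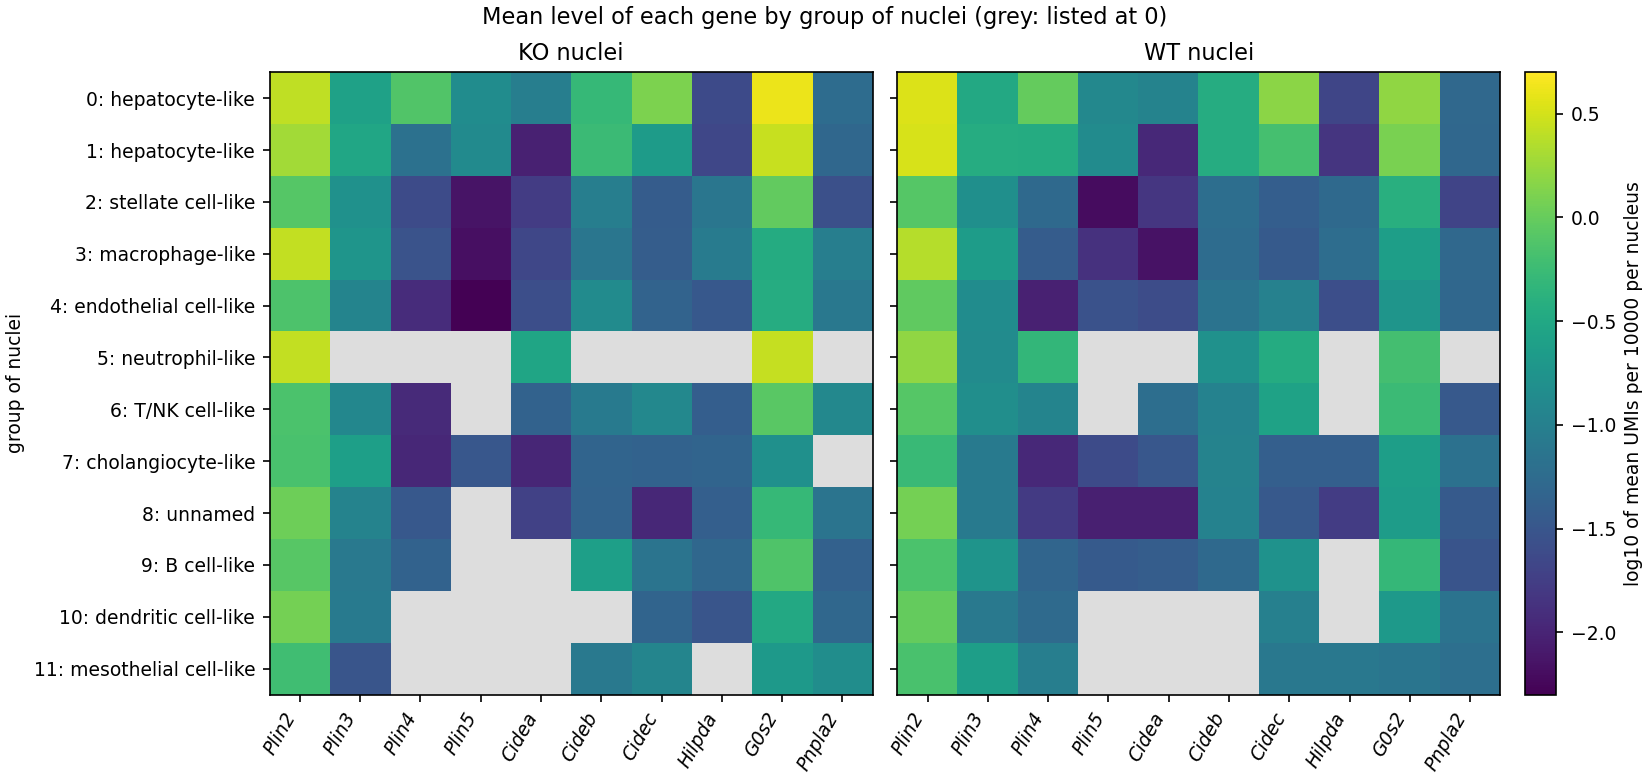
Level of each gene in each of 12 groups of nuclei, KO at left and wild type at right, as log10 of mean UMIs per 10000 per nucleus; grey cells are listed at 0. Plin2 is bright in hepatocyte-like and macrophage-like nuclei, and Plin4, Cidec and Cidea are brighter in group 0 than in group 1.

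Plin4, Cidec and Cidea differed between the hepatocyte-like groups. Group 0 carried more Glul (4.92 in KO and 4.58 in wild type, against 0.146 and 0.154 in group 1) and Cyp2e1, genes of hepatocytes around the central vein. Group 1 carried more Hal (4.41 in KO and 2.81 in wild type, against 0.245 and 0.149 in group 0) and Cyp2f2, genes of periportal hepatocytes. Plin4 stood at 0.771 in KO and 0.970 in wild type nuclei of group 0, and at 0.0659 and 0.348 in group 1. The log2 ratio of group 0 to group 1 was therefore 3.5 in KO and 1.47 in wild type nuclei for Plin4, 2.52 and 1.17 for Cidec, and 3.06 and 3.05 for Cidea. Cidea in group 1, at 0.00949 in KO and 0.0112 in wild type nuclei, was below the level floor, so its ratio rests on group 0. Past 2-fold higher in group 0 were 4.71% of genes in KO and 2.81% in wild type nuclei. The other 7 members differed by less than 2-fold between these groups in both genotypes, with Plin5 at log2 0.09 and -0.15 and Pnpla2 at 0.18 and 0.05. The groups were drawn by the authors from the same transcripts, so these ratios describe the groups and are not a test.

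Between genotypes, G0s2 was higher in KO than in wild type nuclei in 11 of 12 groups. It had 4.12 in KO and 1.59 in wild type nuclei of group 0 and 2.83 and 1.25 in group 1, log2 ratios of 1.37 and 1.18, where 3.74% and 4.08% of genes were past 2-fold higher. In stellate cell-like nuclei it had 0.946 in KO and 0.390 in wild type (log2 1.27; background 6.13%), and in macrophage-like nuclei 0.350 and 0.241 (log2 0.54). The cholangiocyte-like group was the exception, with 0.159 in KO and 0.239 in wild type. The share of genes higher in as many groups was not counted. In the macrophage-like group, the G0s2 share of the hepatocyte-like mean (12.1%) was below the median share of the hepatocyte markers (15.1%). The same held in the endothelial cell-like, cholangiocyte-like, dendritic cell-like and mesothelial cell-like groups. In those groups G0s2 cannot be told apart from the hepatocyte background. In the stellate cell-like group its share was 27.3%, between the marker median of 13.1% and the highest marker at 42.1%. It also lay between the median and the highest marker in the neutrophil-like, T and NK cell-like, B cell-like and unnamed groups. The G0s2 levels of these groups are therefore not set clear of that background either. Summed hepatocyte markers were also higher in KO nuclei in all 12 groups, by log2 0.42 in group 0, 0.85 in group 1 and 0.86 to 1.28 elsewhere, and their part in the G0s2 ratios was not tested. In the bulk libraries G0s2 averaged 625 ± 408 normalized counts under the label KO and 708 ± 291 under the label wild type (SD, n = 3 each). Ms4a7 ran against those labels, and bulk and nuclei levels are on different scales, so they were not compared.

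Plin4 and Cidec were lower in KO nuclei of hepatocyte-like group 1. Plin4 had 0.0659 in KO and 0.348 in wild type nuclei there (log2 -2.36) and Cidec 0.224 and 0.662 (log2 -1.55), where 3.78% of genes were past 2-fold lower. In group 0 the same genes had log2 ratios of -0.33 and -0.20. Cidec was lower in KO nuclei in 7 of the 8 groups where it passed the floor, the mesothelial cell-like group being the exception with 0.117 in KO and 0.0791 in wild type. In 5 of the 6 such groups that are not hepatocyte-like, its share of the hepatocyte-like mean was below the median share of the hepatocyte markers there (8.15% against 18.7% in endothelial cell-like nuclei). Those groups therefore cannot be told apart from the hepatocyte background. In T and NK cell-like nuclei the Cidec share was 21.6%, against a marker median of 20.8% and a highest marker at 86.4%, so it is not set clear of that background. The share of all genes lower in as many groups as Cidec was not counted. Plin2 was lower in KO nuclei of both hepatocyte-like groups (log2 -0.46 and -0.77) and higher in macrophage-like nuclei (0.22), all within 2-fold. Cideb was higher in KO nuclei of groups 0 and 1 (log2 0.50 and 0.63). Pnpla2 stood at log2 0.15 and 0.01 there and at 0.84 in macrophage-like nuclei.

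Over all groups, 71 of 120 pairs of a member and a group passed the floor, of which 11 were past 2-fold higher in KO nuclei and 15 past 2-fold lower. No member was past 2-fold lower in groups 0, 2 and 3, where 1.73%, 2.82% and 3.01% of genes were, and none was past 2-fold higher in group 3, where 4.9% were. Group 4 had 7.12% higher and 3.96% lower, with Cidec lower. Group 6 had 10.1% higher and 8.57% lower, with Pnpla2 higher (0.126 in KO and 0.0346 in wild type) and Plin4 and Cidec lower. Plin4 stood there at 11.7% of its hepatocyte-like mean, below the hepatocyte marker median of 20.8%. It cannot be told apart from the hepatocyte background in that group. Group 7 had 7.89% higher and 4.3% lower, with Plin3 higher and Cideb lower, and group 8 had 8.33% and 4.36%, with G0s2 higher and Cideb lower. Group 9 had 13.9% higher and 11.4% lower, with Cideb higher and Plin3 and Cidec lower, and group 10 had 19.6% and 16.5%, with Cidec lower. Group 11 had 24.9% higher and 19.9% lower, with G0s2 and Pnpla2 higher and Plin3 lower. The sparse neutrophil-like group gave 6 of the pairs, where 26.8% of genes were past 2-fold higher and 38.6% past 2-fold lower, and its Plin3, Plin4, Cideb and Cidec were listed at 0 in KO and its Cidea at 0 in wild type.

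**Figure D5:**
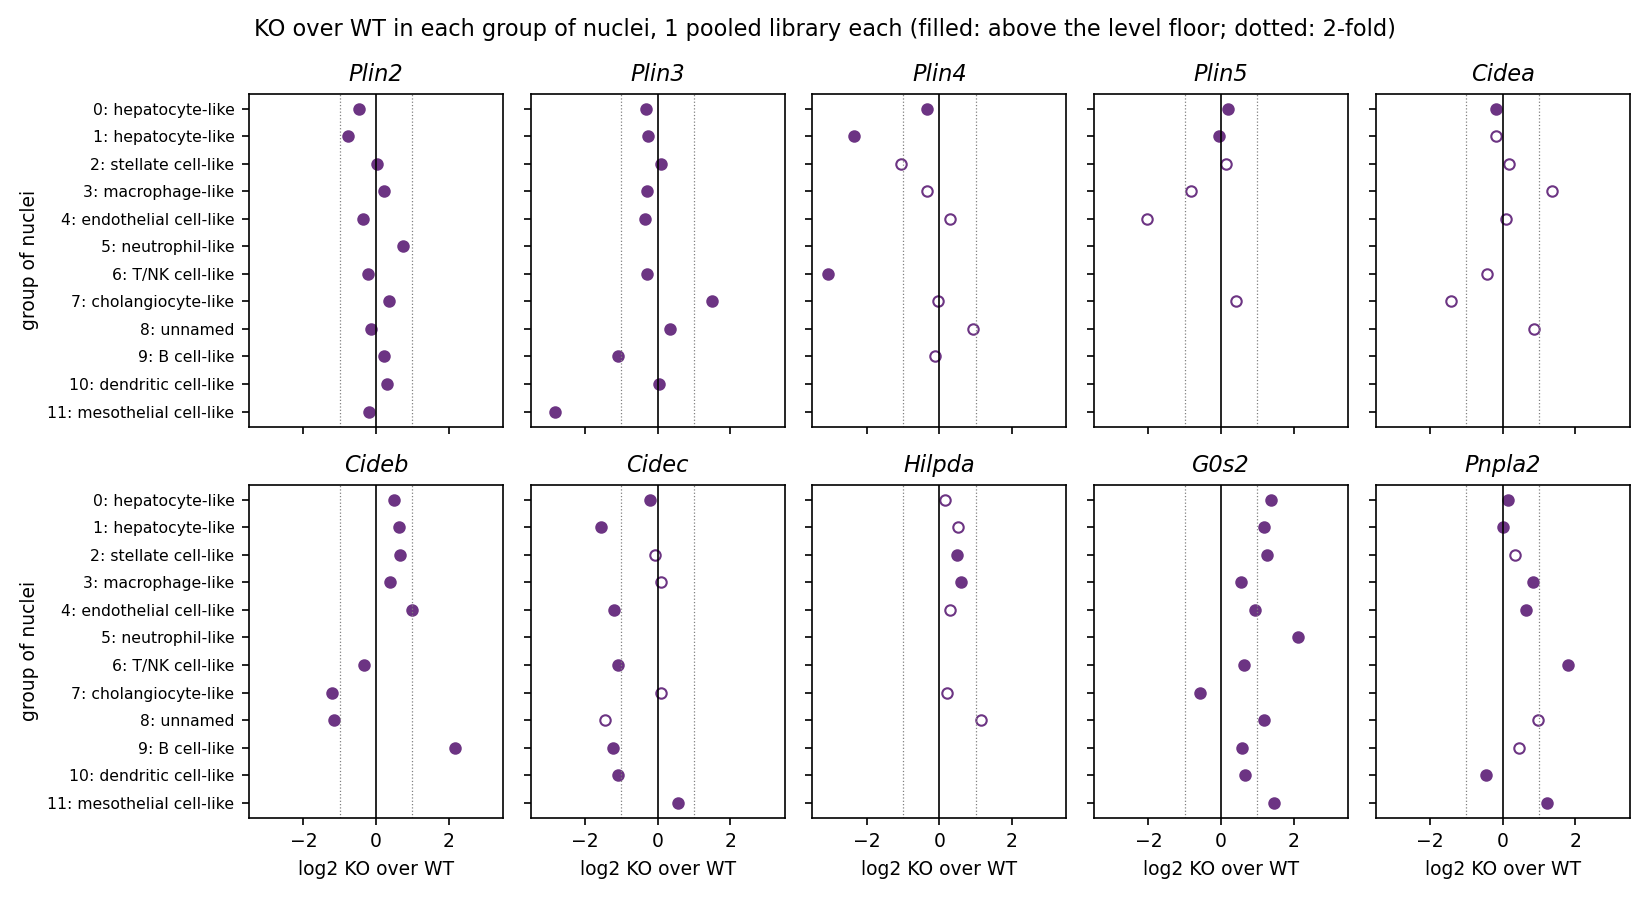
Log2 ratio of KO to wild type nuclei for each gene in each of 12 groups, from 1 pooled library per genotype; filled points pass the level floor, dotted lines mark 2-fold, and pairs listed at 0 in either genotype are not drawn. G0s2 lies right of 0 in 11 of 12 groups, and Plin4 and Cidec lie left of the 2-fold line in hepatocyte-like group 1.

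The genes most like each member over the 12 groups, by Pearson correlation of mean levels among the leading 5000 genes, were found for the 6 members above the floor on average. Cidec tracked Cyp2c68 (r = 0.97), Cdo1 and Car3 (both 0.96). Plin2 tracked Idh1 (0.94), Nfe2l2 (0.90) and Creg1 (0.89), and Plin4 tracked Ubxn4 (0.94), Gm12909 and Lin7a (both 0.92). G0s2 was nearest to Abca8b (0.96), Adra1b (0.95) and Lin7a (0.94), Cideb to C2cd2 (0.94), Tapt1 (0.92) and Kcnn2 (0.91), and Plin3 to Fam13a (0.92), F10 (0.90) and Cers2 (0.89). Among members, Plin4 went with G0s2 (r = 0.88) and Cidec (0.87), and Plin3 with Plin5 (0.82). Plin5 passed the floor in 2 groups alone and was listed at 0 in both genotypes in groups 5, 6, 10 and 11. Its r therefore rests in part on the pseudocount. These are descriptions over 12 groups that share 2 libraries and the hepatocyte background.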

How the data were processed

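Bulk RNA was aligned with STAR to mm10 and handled with DESeq2, and nuclei were handled with Cell Ranger and Seurat 4.0.1, per the submitters' processing notes; the read counter and annotation are not given in the sources used here. The deposited bulk signal holds normalized counts; its values show that the authors divided each library's gene counts by a size factor, since 100% are whole reads to within 0.01 of 1 read, and those reads were recovered. The deposited log2 fold changes and the deposited p-values were made by the authors between the same groups. The deposited nuclei signal is the authors' mean of UMIs scaled to 10000 per nucleus.

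A gene was tested if 3 of its 6 libraries reached 10 normalized counts. Tests used limma 3.58.1 (trend, two-sided, R 4.3.3) on log2 of the value plus 1, with Benjamini-Hochberg adjustment over all genes tested and a threshold of 0.05. A fold change on that scale understates the change of low genes. edgeR 4.0.16 and DESeq2 1.42.0 on recovered reads, other pseudocounts, filters and scalings, a replicate block and leaving out each library were alternatives. On simulated counts with known changes, the fit recovered 80% of changes of 1 log2 unit among 100 in the first table and 89% in the second. The changes were placed only on genes above a cutoff of mean reads, with the same dispersion for every gene. These shares therefore do not hold for members with few reads, such as Hilpda and Plin4 in the first table. Nor do they hold for members of wide spread, such as G0s2 there.

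Nuclei ratios used a pseudocount of 0.0025, the 5th percentile of values above 0, and a floor at the 50th percentile of a group's levels. Groups were named where a list of at least 8 detected markers had a share of at least 0.5, and at least 3 markers, at their highest or second highest level in the group, and that share was at least 1.5 times that of the next list. This rule was set after the table was seen; an earlier one left groups 0 and 8 unnamed, and an intermediate one groups 8 and 10. Doublet treatment is not given in the sources used here, and 4 nuclei entries that repeat a gene's name are not used. Named genes are the 10 members, Ms4a7, called genes of 6 pathway lists, leading markers, and the 3 genes most like a member. The members and lists were chosen with earlier results of these data known.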

Additional observations from a re-analysis of the deposited data

Results flagged for a closer look

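Plin3 and Cideb moved past 2-fold in opposite directions between genotypes in different groups of nuclei, which was not tested, since each genotype has 1 pooled library. The log2 ratio of KO to wild type for Plin3 was 1.5 in the cholangiocyte-like group, -1.10 in the B cell-like group and -2.83 in the mesothelial cell-like group. For Cideb it was 2.16 in the B cell-like group, -1.23 in the cholangiocyte-like group and -1.17 in the unnamed group 8. In these groups between 4.3% and 24.9% of genes were past 2-fold in a given direction.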

How the results depend on the processing

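DESeq2 called 1241 genes under the label KO and 1221 under the label LD, with 1 member in each, and the limma counts were 589 and 620 with 0 members. Leaving out 1 library gave 124 (without KO replicate 2) to 530 genes under the label KO with 0 members, and 134 (without PBS replicate 2) to 1226 (without LD replicate 3) under the label LD with 0 to 4 members. The other count settings moved the member count in 3 places: quantile normalization called 1 member under each label, and TMM scaling 1 under the label LD. The replicate block called 822 genes under the label KO with 0 members, and 793 under the label LD with 2 members, Plin4 and Cidec (5.32% of all genes). Not every same-numbered pair of libraries deviated together (r from -0.03 to 0.12 in the first table and from -0.04 to 0.13 in the second), and not every library correlated best with its own number, so the pairing has no support in the design. The block left the G0s2 to Pnpla2 differences at -0.27 and -0.14.

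Quantile normalization reversed Plin4 (-0.088), Cideb (0.017) and Pnpla2 (0.0062) under the label KO and Pnpla2 (-0.025) under the label LD, none of them called. Leaving out 1 library reversed some uncalled log2 fold changes. Under the label KO, Plin4 ranged from -0.12 to 0.25 and G0s2 from -0.83 to 0.19. Under the label LD, Cidea ranged from -0.16 to 0.29, G0s2 from -0.33 to 0.15 and Pnpla2 from -0.17 to 0.18. The G0s2 to Pnpla2 difference then ranged from -0.75 to 0.24 under the label KO and from -0.37 to 0.14 under the label LD. The cause was not tested. In nuclei, the 11 pairs past 2-fold higher and 15 past 2-fold lower became 17 and 25 with the floor at the 25th percentile, and the 15 became 8 with the pseudocount at the 25th percentile. Members with under 100 reads in a library, where counting error is widest, were Cidea, Hilpda, Plin4 and Cidec in the first table and Hilpda in the second.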

Other observations

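Pnpla3, a lipase-family gene of hepatocyte droplets that was chosen after its values were seen, had 19.7, 33.1 and 147 normalized counts in the libraries labelled KO, against 2.42, 10.3 and 3.67 in those labelled wild type. The log2 fold change was 3.06 ± 0.78 SE (limma, adjusted p = 0.0797), and replicate 3 carried most of the signal. In the other table it had 394, 218 and 572 in libraries labelled LD and 504, 690 and 345 in libraries labelled PBS, which overlapped. Gpat3, called lower under the label KO, had 195, 258 and 330 in libraries labelled LD and 468, 355 and 474 in libraries labelled PBS (log2 fold change -0.75 ± 0.20 SE, adjusted p = 0.0782).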
